A study of Bos taurus with 12 samples.

Results

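The heat shock, chaperone and immediate early genes of the bovine corpus luteum are described here, in 12 Japanese-Black cows on 1-colour Agilent arrays. The corpus luteum is the gland that forms in the ovary after ovulation and secretes progesterone. The cows formed 3 groups of 4, each animal giving 1 array. The P18 group was taken on day 18 of gestation, the P15 group on day 15 of gestation and the NP15 group on day 15 of the estrous cycle in cows that were not pregnant, day 1 being that of insemination. The organs were collected 10 to 30 min after exsanguination, and 400 ng of total RNA from each was amplified and labelled with Cy3. No treatment or transgene is named in the labels. Genes were taken by symbol: all probes named for HSPA, HSPB, HSPE or HSP90 genes, DNAJ genes, CCT subunits and TCP1 (chaperones), and FOS, FOSB, JUN, ATF3, IER2, IER3, EGR and DUSP genes (immediate early genes and DUSP phosphatases). This gave 51 genes of 14866 on the array, read by 53 of its 15208 probes. The chaperones were 36 genes with 38 probes, and the immediate early and DUSP genes were 15 with 1 probe each. A test was made for 50 of the 51 genes, 35 chaperones and 15 immediate early and DUSP genes, and 47 of them were well above background on all 12 arrays. The gene left out was DNAJB13, well above background on 1 P15 array and on no other. No probe was matched for HSPD and HSPH genes, FOSL1, FOSL2, JUNB or JUND.

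Chaperones bind unfolded proteins and help them fold. HSP70 proteins (the HSPA genes) do so in cycles driven by ATP, DNAJ proteins bring them their clients and start the cycle, HSP90 acts on clients at a late stage, small heat shock proteins (HSPB) hold unfolded proteins without ATP, and the CCT ring folds actin and tubulin inside a closed chamber. Immediate early genes are transcribed within minutes of a hormone, growth factor or stress signal and need no new protein for it; many encode transcription factors such as FOS, JUN and EGR1, and several DUSP genes encode phosphatases that switch off the MAP kinases which induced them. In the corpus luteum the FOS, JUN, ATF3 and EGR1 genes are known as early responders to prostaglandin F2 alpha, the hormone that ends luteal life.

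Every probe on the array was 60 bases long, and the values below are the signals of such probes. The sequences are given for a selection of genes. These are the HSPA1 and DNAJA2 pairs, in which different probes gave different results, and the immediate early genes FOS, EGR1 and JUN. HSPB8, DNAJC19 and DNAJB4 are given from the chaperones that differed on day 18. Other genes with a wide spread, such as ATF3, or with a difference on day 18, such as DNAJB12, are not shown. Capitals mark AATAAA, the letters of the usual polyadenylation signal, searched for on the printed strand only. They were found in 10 of the 53 probes (18.9%) and in 11.3% of all 15208 probes. For some probes only the last 30 bases are shown.
HSPA1A, probe ABR98, last 30 bases: tttctgtttacttccaagtaAATAAActca
HSPA1B, probe ABR1156: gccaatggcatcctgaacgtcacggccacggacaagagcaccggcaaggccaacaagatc
DNAJA2, probe ABR1969: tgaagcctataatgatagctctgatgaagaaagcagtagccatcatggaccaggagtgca
DNAJA2, probe ABR3384, last 30 bases: ttggAATAAAcagatcctatgccaaaaatt
FOS, last 30 bases: aggaccttatctgtgcgtgaaacacaccag
EGR1: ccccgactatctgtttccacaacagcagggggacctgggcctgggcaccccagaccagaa
JUN: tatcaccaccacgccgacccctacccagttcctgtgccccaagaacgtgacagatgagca
HSPB8, last 30 bases: gcgtgtcattgttatttgaattgtgctgtt
DNAJC19: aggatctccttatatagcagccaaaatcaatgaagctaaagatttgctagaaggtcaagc
DNAJB4, last 30 bases: aaatattttactttttcatatgtatagatt
The G and C content was 35.0% in the HSPA1A probe and 60% in the HSPA1B probe, 21.7% in the DNAJB4 probe and 63.3% in the EGR1 probe; the median was 43.3% both over the 53 probes and over all probes. These 53 probes contained 1 whose sequence was repeated elsewhere on the array. The DNAJC14 probe (last 30 bases tcctaagtgttagagtaaagggcacctcct) had the same 60 bases as a probe that the files name CIP29, at another place on the array, and the 2 spots differed by at most 0.27 log2 units on any array.

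Levels are log2 of the processed signal minus the 75th percentile of that array, so 0 is the 75th percentile, and they are compared between cows and never between genes. Differences were tested with limma over all 12316 genes, with p-values adjusted by the Benjamini-Hochberg method, and a gene passed the test when its adjusted p was under 0.05. The 75th percentile of the signal was 3000 to 3558 in P18, 2649 to 3773 in P15 and 2868 to 4183 in NP15. The luteal enzyme CYP11A1, which makes the first steroid from cholesterol, was at 6.01 to 6.31 in P18, 6.07 to 6.26 in P15 and 6.26 to 6.52 in NP15, so the tissue marker was present on every array. The P18 arrays were all on slide 2 and scan 2, and the P15 and NP15 arrays on slide 1 and scan 1, so for every P18 comparison batch and group cannot be told apart. The net signal of the negative controls was 77.3 to 92.9 on the P18 arrays, 31.7 to 36.3 on the P15 arrays and 34.6 to 38.7 on the NP15 arrays. P15 and NP15 differed in slide row, which cannot be told apart from pregnancy, and P18 against NP15 also sets day 18 against day 15. The array of NP15 replicate 4 stood apart: 8.53% of all genes there were more than 1 log2 unit below the other 3 arrays of its group, and 46.4% were the highest of the group. Calls that were made only without it are given beside the genes concerned.

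Immediate early genes spread widely between cows of the same group. In the values reported, the mean level of FOS, FOSB, ATF3, EGR1, EGR4, IER2 and IER3 did not pass the test in any comparison of groups. FOS, which encodes a subunit of the AP-1 transcription factor, was at -2.59, 0.06, -2.71 and -2.31 in the 4 P18 corpora lutea (replicates 1 to 4, as in all such lists), at -3.88, -1.08, -0.47 and 1.82 in P15, and at -2.99, -3.03, -0.79 and 1.90 in NP15. The highest corpus luteum was replicate 2 in P18 and replicate 4 in P15 and in NP15, and the groups overlapped over most of their ranges. The highest and lowest FOS levels were 6.85-fold apart in P18, 51.8-fold in P15 and 30.5-fold in NP15. A larger range was seen in 2.28%, 0.0974% and 0.276% of all genes in P18, P15 and NP15. The P15 range of FOS was 5.70 log2 units, and 5.24 to 5.90 over the normalizations, background correction and position adjustment run. The difference in mean FOS was -0.66 ± 1.31 (SE) for P18 against NP15, -0.98 ± 1.31 for P18 against P15 and 0.32 ± 1.31 for P15 against NP15, with adjusted p by limma of 0.742, 0.619 and 0.963. Without NP15 replicate 4 the P18 against NP15 difference was 0.38 ± 1.20, and without P15 replicate 4 the P15 against NP15 difference was -0.58, so these signs rest on single cows.

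The same cows were high in several other genes of the group, but not in all. ATF3, a stress-induced transcription factor, was at -1.54, -0.03, -1.29 and -1.75 in P18, at -2.26, -1.93, -1.79 and -0.66 in P15, and at -1.44, -2.09, -2.17 and -0.30 in NP15. IER2, a small nuclear protein of the early response, was at 1.96, 3.70, 2.20 and 2.22 in P18, at 2.13, 2.41, 2.91 and 3.97 in P15, and at 2.16, 1.92, 2.72 and 2.63 in NP15. P18 replicate 2 and P15 replicate 4 were again the highest of their groups in both genes, and NP15 replicate 4 was the highest of its group in ATF3 but not in IER2. EGR1, a zinc finger transcription factor, was at -5.33, -5.05, -4.85 and -5.21 in P18, at -6.15, -5.81, -5.5 and -4.68 in P15, and at -6.19, -6.06, -5.64 and -4.58 in NP15. Its relative EGR4 was at -5.34, -4.93, -4.8 and -4.72 in P18, at -6.13, -5.58, -5.65 and -4.88 in P15, and at -5.88, -6.33, -6.17 and -4.64 in NP15. For both EGR genes the P18 cows lay close together and above 3 of the 4 NP15 cows, and NP15 replicate 4 lay above them all. IER3, an early gene with roles in cell survival, ranged from 2.41 to 3.49 in P18, from 2.28 to 3.19 in P15 and from 2.24 to 3.04 in NP15, and FOSB, a relative of FOS, ranged from 1.17 to 2.15, from 1.38 to 2.35 and from 1.39 to 2.25 in these groups. Neither FOSB nor IER3 was highest in NP15 replicate 4.

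**Figure D1:**
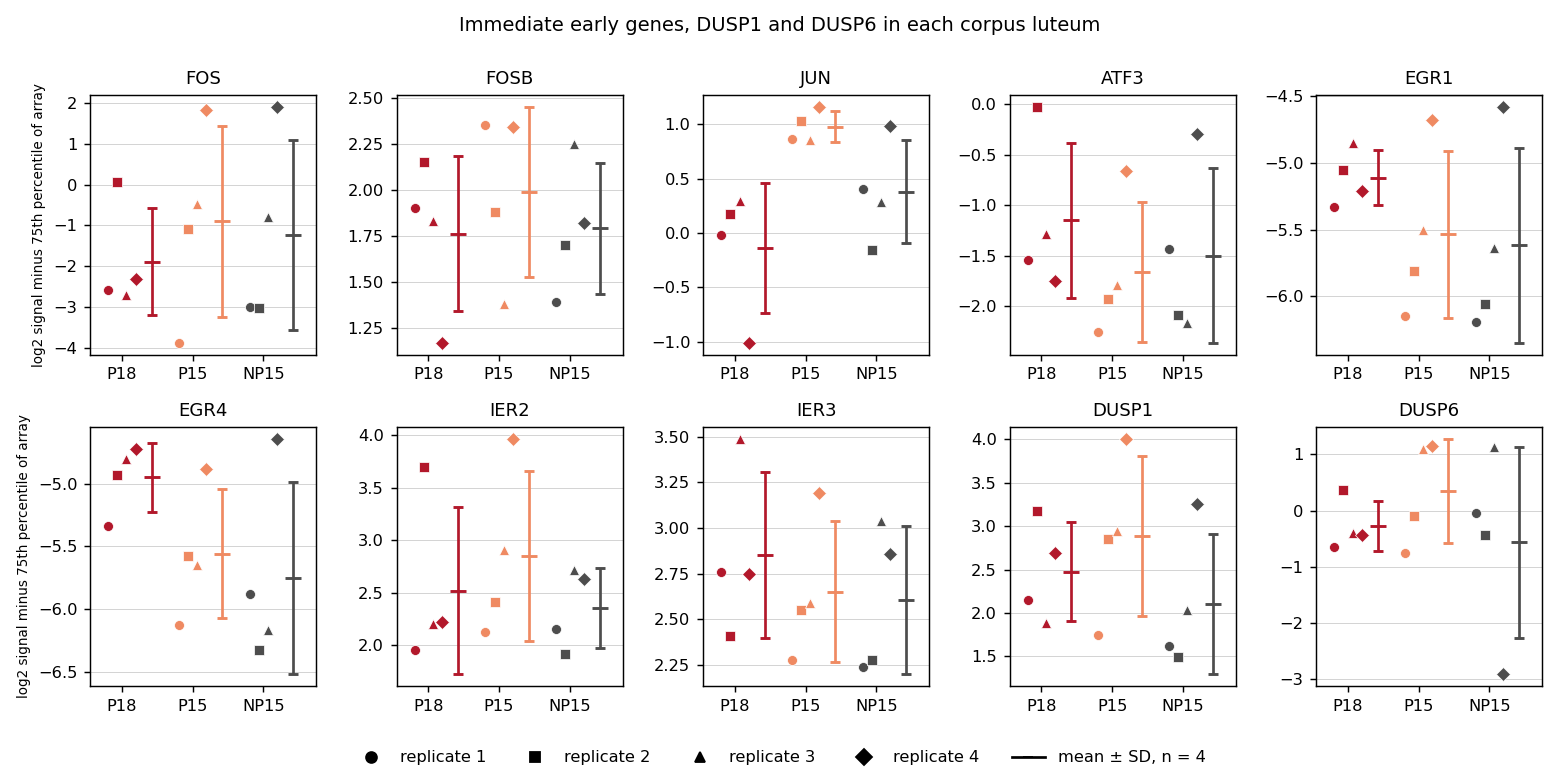
Levels of 8 immediate early genes and 2 DUSP genes (log2 signal minus the 75th percentile of the array, vertical axis, with its own scale in each panel) in the P18, P15 and NP15 groups; each symbol is 1 corpus luteum, the shape gives the replicate number, and bars are the mean ± SD of 4. FOS, ATF3 and IER2 are highest in P18 replicate 2 and P15 replicate 4 of their groups, and DUSP6 is far below the rest in NP15 replicate 4, at -2.91.

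Counted over the 8 immediate early genes, P15 replicate 4 was the highest of its group in 7 (87.5%), against 23.8% of all genes, and was more than 1 log2 unit above the other 3 cows in 3 (37.5%), against 1.28%. NP15 replicate 4 was highest in 5 (62.5%), against 46.4% of all genes, and more than 1 log2 unit above the others in 4 (50%), against 1.64%. P18 replicate 2 was highest in 4 (50%), against 20.6%, and more than 1 log2 unit above in 3 (37.5%), against 1.29%. These cows were noticed from their FOS levels, and FOS is 1 of the 8 genes. It is also among those more than 1 log2 unit above the others in each of these cows. That part of each count was fixed beforehand, so the counts are descriptions. The pattern extended to related genes outside the rule. Of 19 other early and stress-response genes tested, P15 replicate 4 was the highest in 17 (89.5%) and more than 1 log2 unit above the rest in 9 (47.4%). NP15 replicate 4 was the highest in 13 of these 19 genes and P18 replicate 2 in 12, each more than 1 log2 unit above the rest in 5 (26.3%). Each was also more than 1 log2 unit below the rest in 1 of them. That gene was CCN1 in NP15 replicate 4, at -1.17, and CITED2 in P18 replicate 2, at -0.06. NR4A1, an orphan nuclear receptor, was at 1.56, 3.90, 1.1 and 1.97 in P18, at 0.29, 2.16, 2.36 and 4.64 in P15, and at 0.54, 0.95, 1.77 and 4.02 in NP15. Of the 35 chaperones, none was more than 1 log2 unit above the rest of its group in any of these cows. P18 replicate 2 was the highest of its group in 12 of 35 (34.3%), P15 replicate 4 in 9 (25.7%) and NP15 replicate 4 in 20 (57.1%), against 20.6%, 23.8% and 46.4% of all genes; the difference from the early genes was not tested. On each slide the replicate number was also the slide column, so P15 replicate 4 and NP15 replicate 4 shared column 4 of slide 1. EGR1 and NR4A1 rose at each step of replicate number in P15 and in NP15. FOS, ATF3, IER2 and IER3 did so in P15 only, and EGR4, FOSB and JUN in neither. The part of the slide column was not tested. Summed levels of markers are log2 of the summed unlogged signals of a list, so the brightest markers weigh most. Of the macrophage and myeloid markers, 5 of 6 were above background on all 12 arrays. Their summed level was 1.26 in P15 replicate 4 against -0.01 to 0.59 in the other P15 cows. It was 0.86 in NP15 replicate 4 against 0.23 to 0.68. In P18 replicate 2 it was 1.01, within the range of 0.58 to 1.79 of that group. The 8 T and NK cell markers, 4 of them above background on all 12 arrays, summed to -1.3 in P18 replicate 2, within the -1.78 to 0.73 of its group, to -0.46 in P15 replicate 4 against -1.66 to -0.65, and to -0.06 in NP15 replicate 4 against -1.53 to -0.87. The 9 endothelial markers, 8 of them above background on all 12 arrays, summed to 3.32 in P18 replicate 2 against 3.03 to 3.3, to 3.74 in P15 replicate 4 against 3.43 to 3.63, and to 3.71 in NP15 replicate 4 against 3.1 to 3.35. Not every marker followed its sum. In NP15 replicate 4, TYROBP was at -3.48 against -2.08 to -1.13 in the other NP15 cows, while the other myeloid markers were the highest of the group. CD2 and PRF1 were the lowest of the group there, CD2 at -6.33 against -5.04 to -4.90, while CD3D, CD3E, CD3G, CD4 and CD8A were the highest. The part of these cell types in the early gene levels was not tested. In whole tissue, more cells with a transcript and more transcript per cell cannot be told apart.

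The range between the highest and lowest cow exceeded 1 log2 unit in 5 of the 8 immediate early genes (62.5%) in each group, against 20.5% of all genes in P18, 18% in P15 and 24.9% in NP15. The median range of the immediate early genes was 1.20 log2 units in P18, 1.36 in P15 and 1.38 in NP15, and of all genes 0.50, 0.47 and 0.59. That of the chaperones was 0.35, 0.31 and 0.50, below that of all genes in each group. Chaperones with a range above 1 numbered 4 in P18 (11.4%), 2 in P15 (5.71%) and 7 in NP15 (20%). JUN was the exception among the early genes in P15, where its range was 0.29 log2 units and 72.5% of all genes had a larger one.

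**Figure D2:**
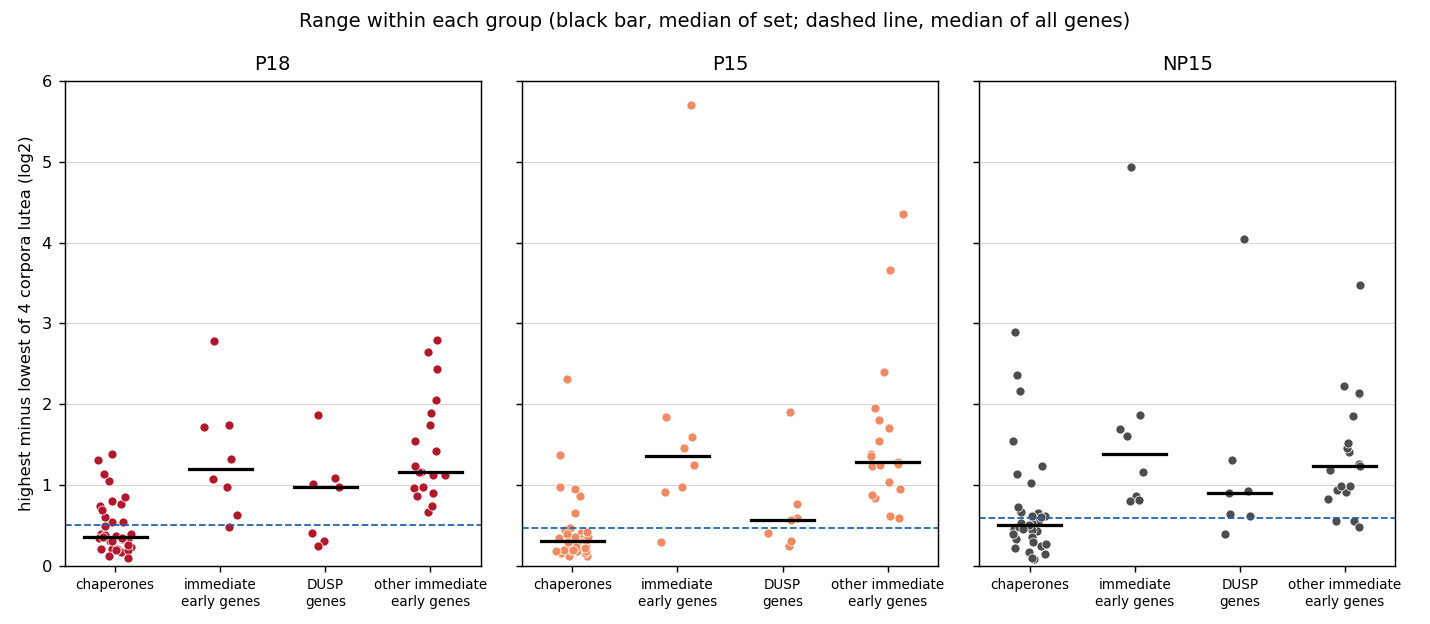
Highest minus lowest level of the 4 corpora lutea (log2 units, vertical axis) for each gene, in P18, P15 and NP15; each point is a gene, the black bar is the median of the set and the dashed line the median of all 12316 genes. Immediate early genes (medians 1.20, 1.36 and 1.38) lie above the chaperones (0.35, 0.31 and 0.50) in each group, and the highest point is FOS in P15, at 5.70.

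Between groups, no early gene or DUSP gene passed the test for P15 against NP15 (0 of 15 by limma; 0 of 15 at an unadjusted p under 0.05, against 8.75% of all genes; lowest adjusted p 0.624) and none for P18 against NP15 (0 of 15 by limma; 3 of 15 at an unadjusted p under 0.05, against 40.3% of all genes; lowest adjusted p 0.068). For P18 against P15, 1 was higher, DUSP12, and 1 was lower, JUN, and 3 of 15 had an unadjusted p under 0.05, against 39.5% of all genes. Of all genes, 1.01% passed for P15 against NP15, 28.9% for P18 against NP15 (10.4% higher and 18.6% lower) and 28.3% for P18 against P15 (12.8% higher and 15.5% lower). Centring each array on its median raised the share of higher genes among those that passed to 59.3%, against 35.8%, for P18 against NP15, and to 65.1%, against 45.3%, for P18 against P15, and it moved the median difference of all genes to 0.11 and 0.13, against -0.06 and -0.03. Small differences on day 18 are therefore relative to the scaling used.

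JUN, which pairs with FOS proteins in AP-1, was at -0.02, 0.18, 0.30 and -1.01 in P18, at 0.87, 1.03, 0.86 and 1.16 in P15, and at 0.41, -0.16, 0.29 and 0.99 in NP15. All P18 cows lay below all P15 cows, and NP15 overlapped both. JUN fell by 1.12 ± 0.29 on the log2 scale (2.17-fold) in P18 against P15, with an adjusted p of 0.0157 by limma. It was -0.52 ± 0.29 for P18 against NP15 (adjusted p 0.217) and 0.60 ± 0.29 for P15 against NP15 (adjusted p 0.624). The JUN spot lay in the outer 24 rows of the array, which held 3057 of the 12316 genes and were left out in 1 alternative, so that JUN was not tested there; with each spot adjusted for its neighbours, the P18 against P15 difference was -1.05 (adjusted p 0.0134). EGR4 was 0.81 ± 0.36 for P18 against NP15 (adjusted p 0.118) and, without NP15 replicate 4, 1.18 ± 0.26 with an adjusted p of 0.00774. With all arrays it passed there with array weights (1.08, adjusted p 0.00719) or the replicate block (adjusted p 0.0404). EGR1 passed there with array weights only (0.79, adjusted p 0.0459). Both EGR probes lay near the dim end of the scale, and the negative controls were higher on the P18 arrays; their part in the EGR levels was not tested. With the normexp background correction the EGR4 difference was 0.61 (adjusted p 0.0634).

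Among the dual-specificity phosphatases, DUSP12 was at 0.05, 0.34, 0.16 and 0.35 in P18, at -0.40, -0.22, -0.23 and 0.01 in P15, and at -0.22, -0.28, 0.11 and 0.03 in NP15. P18 cows lay above all P15 cows, and DUSP12 rose by 0.44 ± 0.13 on the log2 scale (1.35-fold, adjusted p 0.0276 by limma) in P18 against P15; leaving out P15 replicate 1, 2 or 3 or P18 replicate 2 or 4 ended the call, with adjusted p up to 0.0765. DUSP6, which removes phosphate from ERK kinases, was at -0.64, 0.37, -0.39 and -0.43 in P18, at -0.75, -0.10, 1.09 and 1.15 in P15, and at -0.05, -0.43, 1.13 and -2.91 in NP15. NP15 replicate 4, high in FOS, had the lowest DUSP6 of all 12 cows. The DUSP6 difference was 0.30 ± 0.73 for P18 against NP15 and, without that cow, -0.49 ± 0.52, neither past the test. DUSP26 ranged from -3.51 to -2.54 in P18, from -3.45 to -2.89 in P15 and from -4.46 to -3.15 in NP15, and differed by 0.74 ± 0.28 for P18 against NP15 (adjusted p 0.068). It passed, at 0.70 to 1.06, with quantile normalization, median centring, cyclic loess or normexp, and without NP15 replicate 3 or P18 replicate 3. DUSP3, DUSP10, DUSP11 and DUSP4 did not pass in any comparison with the settings reported. DUSP3 was 0.34 ± 0.14 for P18 against P15 (adjusted p 0.0862), and passed there without NP15 replicate 4 (adjusted p 0.023), with array weights, median centring or 8 arrays only, and for P18 against NP15 with median centring. A second DUSP3 probe, named only through the RefSeq table, had the opposite sign for P18 against NP15, at -0.41 ± 0.18 (adjusted p 0.11) where the first was at 0.23 ± 0.14, and neither passed. DUSP4 was well above background on 2 of the 4 P18 arrays. DUSP1, an early phosphatase whose probe the files name by accession only and which therefore lay outside the rule, was at 2.15, 3.18, 1.89 and 2.69 in P18, at 1.75, 2.85, 2.95 and 4.01 in P15, and at 1.62, 1.49, 2.03 and 3.26 in NP15. It was highest in the same cow of each group as FOS, and it did not pass in any comparison (0.38 ± 0.50 for P18 against NP15, -0.41 ± 0.50 for P18 against P15 and 0.79 ± 0.50 for P15 against NP15).

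No chaperone passed the test for pregnancy on day 15: for P15 against NP15, 0 of 35 passed by limma, 1 of 35 had an unadjusted p under 0.05, against 8.75% of all genes, and the lowest adjusted p was 0.498, for DNAJC19. P15 and NP15 cows did not overlap in 1 chaperone, against 6.5% of all genes. The median difference of the chaperones was 0, and that of all genes was -0.06. On day 18, 4 chaperones were higher and 3 lower than in NP15, and 4 were higher and 4 lower than in P15. These 7 and 8 of 35 stand against the 28.9% and 28.3% of all genes that passed in those comparisons, so a chaperone was not more often different than any gene. At an unadjusted p under 0.05 there were 12 of 35 in each, against 40.3% and 39.5% of all genes. The median chaperone difference was 0.08 for P18 against NP15 and 0.06 for P18 against P15. Both P18 comparisons use the same 4 P18 arrays. P18 and NP15 cows did not overlap in 8 of 35 chaperones, against 30.4% of all genes, and P18 and P15 cows in 11 of 35, against 34.7%. The 35 include HSPBAP1, taken by its symbol, which binds small heat shock proteins. Without it the groups did not overlap in 7 and 10 of 34, and 11 of 34 had an unadjusted p under 0.05 in each P18 comparison.

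**Figure D3:**
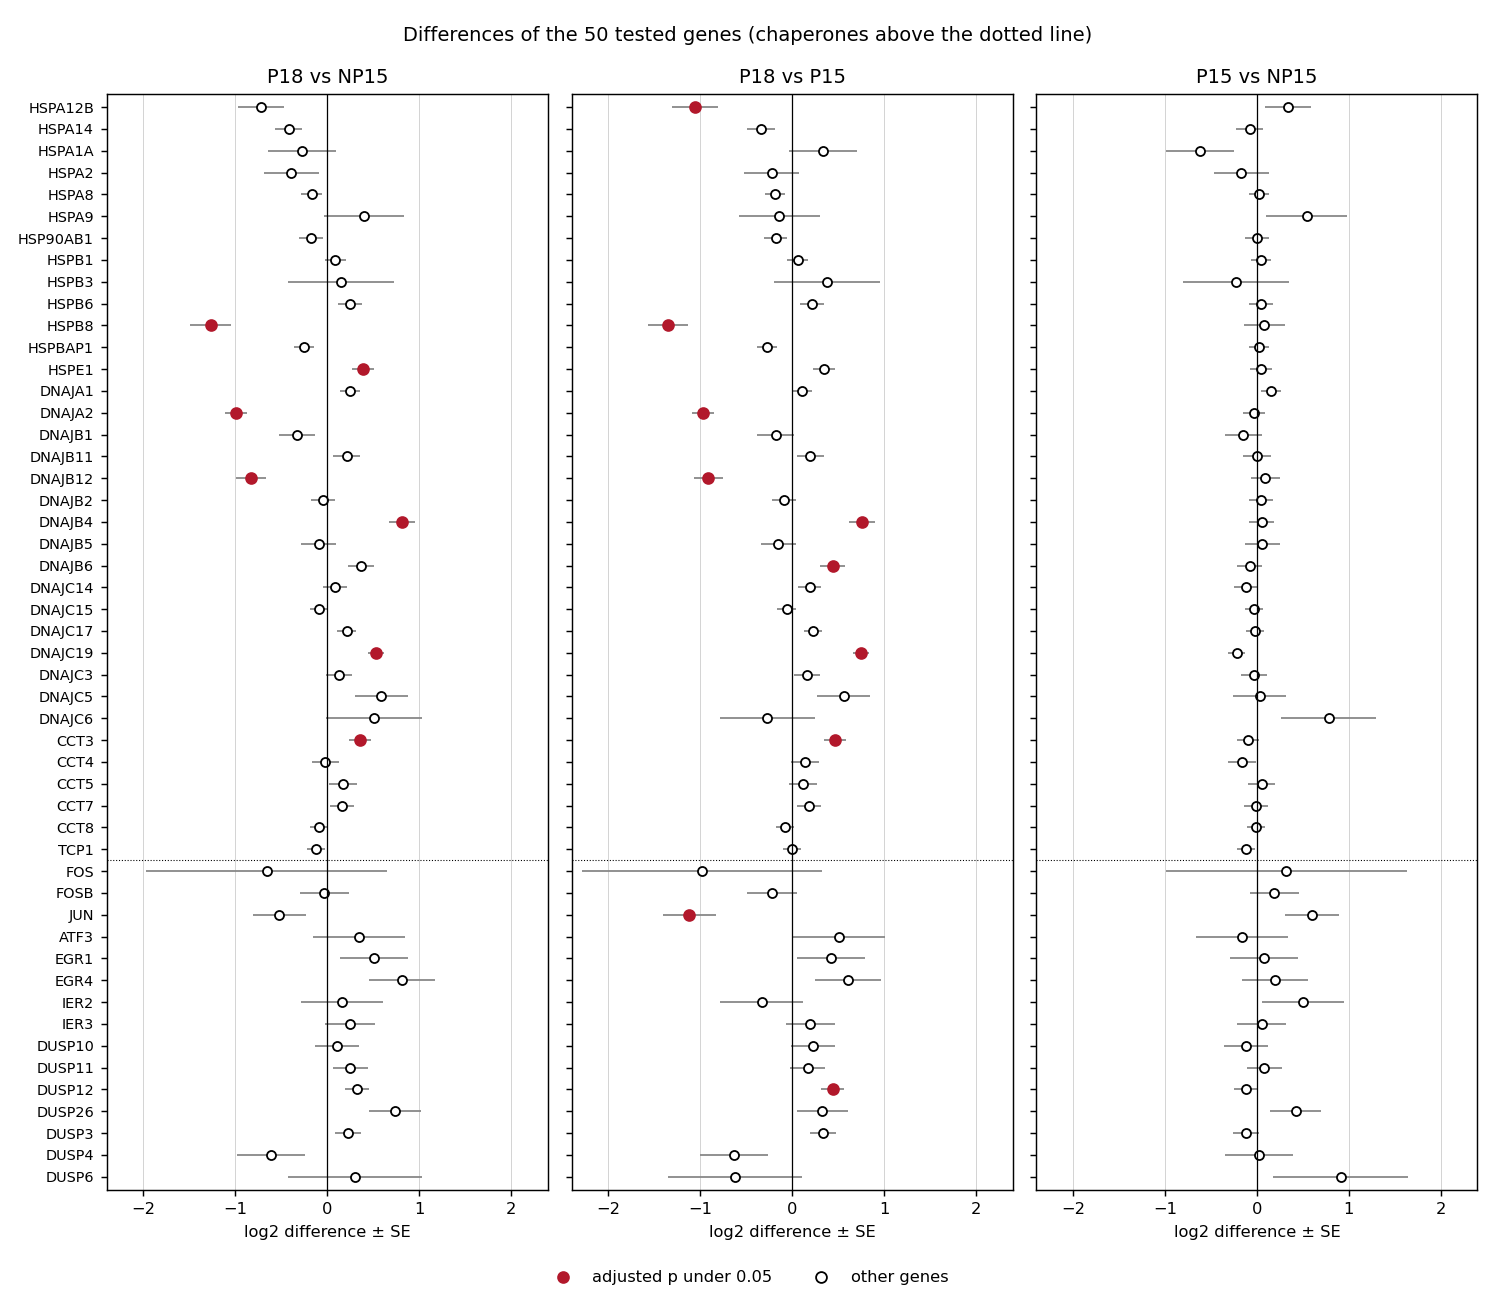
Difference in level (log2 units ± SE from limma, horizontal axis) of the 50 tested genes for P18 against NP15, P18 against P15 and P15 against NP15; filled red points have an adjusted p under 0.05, open points do not, and chaperones stand above the dotted line. There are 7 and 10 filled points in the first and second panels and none in the third, and the widest bar is that of FOS.

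HSPB8, a small heat shock protein that works with the co-chaperone BAG3 in clearing misfolded proteins, fell on day 18. It was at -1.33, -0.52, -0.93 and -1.12 in P18, at 0.15, 0.24, 0.12 and 0.97 in P15, and at 0.58, 0.22, 0.05 and 0.31 in NP15. No P18 cow reached the lowest cow of the other groups. HSPB8 fell by 1.27 ± 0.22 on the log2 scale (2.41-fold, adjusted p 0.00178 by limma) in P18 against NP15 and by 1.35 ± 0.22 (2.54-fold, adjusted p 0.00135) in P18 against P15, and it kept the call in each alternative run and with each array left out. The other small heat shock genes did not pass: HSPB1 ranged from 4.26 to 4.56 in P18, 4.28 to 4.39 in P15 and 4.20 to 4.54 in NP15, and HSPB6 differed by 0.25 ± 0.13 for P18 against NP15. HSPB3, known from muscle, varied between cows, from -6.16 to -4.78 in P18, from -6.90 to -4.59 in P15 and from -7.06 to -4.90 in NP15. HSPBAP1, a binding partner of small heat shock proteins rather than a chaperone, was below every P15 and NP15 cow in every P18 cow, at -0.25 ± 0.11 for P18 against NP15 (adjusted p 0.1) and -0.27 ± 0.11 for P18 against P15 (adjusted p 0.0816). Some markers of vessel and stromal cells were also lower in P18, in each of the 2 comparisons, and none was higher. These were 3 of 9 endothelial and 4 of 9 fibroblast, pericyte and smooth muscle markers. Of all genes, 18.6% were lower than in NP15 and 15.5% lower than in P15. The other markers of these lists did not pass. Their differences for P18 against NP15 ran from -0.43 (CNN1) to 0.13 (FLT1). The summed level of the fibroblast, pericyte and smooth muscle markers was 6.06 to 6.39 in P18, 6.50 to 6.68 in P15 and 6.51 to 6.65 in NP15, and their part in the HSPB8 difference was not tested.

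The HSP70 gene HSPA12B, known in human and mouse as an endothelial member of the family, was at -5.05, -5.37, -4.91 and -5.45 in P18, at -4.28, -3.68, -4.26 and -4.34 in P15, and at -3.93, -4.40, -4.41 and -5.17 in NP15. P18 lay below P15 in full, and NP15 replicate 4 lay within the P18 range. HSPA12B fell by 1.06 ± 0.25 on the log2 scale (2.08-fold, adjusted p 0.00943 by limma) in P18 against P15, and was -0.72 ± 0.25 for P18 against NP15 (adjusted p 0.0506); without NP15 replicate 4 the second difference was -0.95 ± 0.20 with an adjusted p of 0.00604. With all arrays, HSPA12B passed against NP15 with the position adjustment (adjusted p 0.0399), array weights (0.00765), the replicate block (0.0405) or no filter on dim probes (0.0451). With normexp it was -0.21 against NP15 (adjusted p 0.352), and the P18 against P15 call was lost, at -0.44 (adjusted p 0.0605). The probe was well above background on 3 of the 4 P18 arrays. The endothelial junction gene CDH5, with the largest fall of the 9 endothelial markers against NP15, was at -4.50 to -4.18 in P18. It was at -3.36 to -2.89 in P15 and -3.46 to -2.98 in NP15. PECAM1 and VWF were also lower. ENG, ESAM, FLT1, KDR, TEK and TIE1 did not pass, at -0.12, -0.32, 0.13, 0.06, -0.12 and -0.31 for P18 against NP15. The summed level of the 9 markers was 3.03 to 3.32 in P18, 3.43 to 3.74 in P15 and 3.10 to 3.71 in NP15. The part of these markers was not tested. HSPA8, the constitutive HSP70 of the cytosol, ranged from 5.23 to 5.59 in P18, 5.53 to 5.74 in P15 and 5.45 to 5.80 in NP15 and did not pass; it did so, at -0.29 and -0.36, only with cyclic loess. HSPA14, at the ribosome, differed by -0.42 ± 0.15 for P18 against NP15 (adjusted p 0.0565). HSPA2, which the files call HSPA3, differed by -0.39 ± 0.30.

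HSPA9, the HSP70 of mitochondria, was at -0.56, -0.79, -0.39 and -0.44 in P18, at -0.38, -0.37, -0.39 and -0.49 in P15, and at -0.33, -0.43, -0.32 and -2.68 in NP15. NP15 replicate 4 was 5.12-fold below the highest cow of its group, while the other 11 cows lay between -0.79 and -0.32. The HSPA9 difference for P18 against NP15 was 0.40 ± 0.44 with that cow and -0.18 ± 0.11 without it, neither past the test. In that cow 4 of 35 chaperones (11.4%) were more than 1 log2 unit below the rest of the group, against 8.53% of all genes. Among the low ones, DNAJC6, a partner of HSPA8 in uncoating clathrin vesicles, was at -6.71 there against -5.34 to -3.82 in the other NP15 cows, and DNAJC5 at -5.57 against -4.48 to -4.02. Without that cow DNAJC5 rose by 0.56 in P18 against P15 (adjusted p 0.0219 by limma). DNAJB11, of the endoplasmic reticulum, rose by 0.35 in P18 against NP15 without it (adjusted p 0.0355). Neither gene passed with that cow in the values reported. With all arrays, DNAJC5 passed against P15 with quantile normalization (0.79, adjusted p 0.0413), normexp (adjusted p 0.0444) or array weights (adjusted p 0.0301). Against NP15 it passed with quantile normalization, cyclic loess or normexp, at 0.54 to 0.93. HSP90AB1, the constitutive cytosolic HSP90, was at 4.86, 4.85, 4.8 and 4.48 in P18, at 4.98, 4.97, 4.82 and 4.94 in P15, and at 4.86, 4.78, 4.82 and 5.24 in NP15, and differed by -0.18 ± 0.13 from each (adjusted p 0.327 and 0.332 for P18 against NP15 and against P15).

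For the heat-inducible HSP70 genes the array had a pair of probes, and they disagreed. The files name them HSPA1A (ABR98) and HSPA1B (ABR1156); the bovine RefSeq table names both HSPA1A, and such near-identical genes may share signal. The HSPA1A probe was at 2.47, 1.16, 1.28 and 2.35 in P18, at 2.25, 1.55, 0.88 and 1.21 in P15, and at 2.13, 1.61, 2.63 and 2.00 in NP15. The HSPA1B probe was at -0.61, -1.36, -1.60 and -0.22 in P18, at 1.28, 0.70, 0.00 and 0.21 in P15, and at 1.07, 0.57, 1.37 and -0.34 in NP15. By the first probe the groups overlapped (-0.27 ± 0.37 for P18 against NP15, adjusted p 0.621 by limma; 0.34 ± 0.37 for P18 against P15, adjusted p 0.532). By the second, P18 fell by 1.62 ± 0.42 against NP15 (3.07-fold, adjusted p 0.0145 by limma over all probes) and by 1.5 ± 0.42 against P15 (2.82-fold, adjusted p 0.0213). Without NP15 replicate 4, P18 fell by 1.95 ± 0.39 against NP15 in the second probe; its call against P15 was lost without P18 replicate 2 or 3 or P15 replicate 1 or 2, with an adjusted p up to 0.0629.

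The distance between the HSPA1 probes shows the same thing within each array. HSPA1A minus HSPA1B was 3.09, 2.52, 2.88 and 2.57 log2 units in P18, 0.96, 0.84, 0.89 and 1.00 in P15, and 1.06, 1.03, 1.25 and 2.33 in NP15. It was nearly constant over the P15 cows although their levels differed, and larger in every P18 cow. The mean distance was 1.34 larger in P18 than in NP15 and 1.84 larger than in P15. The difference for P15 against NP15 was -0.49, without overlap but narrowly, at 1.00 or less in P15 and 1.03 or more in NP15. NP15 replicate 4, at 2.33, lay far above the other NP15 cows, at 1.03 to 1.25, and weighs on this difference. The pair was picked because its probes disagreed, so these distances are a description with no test.

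**Figure D4:**
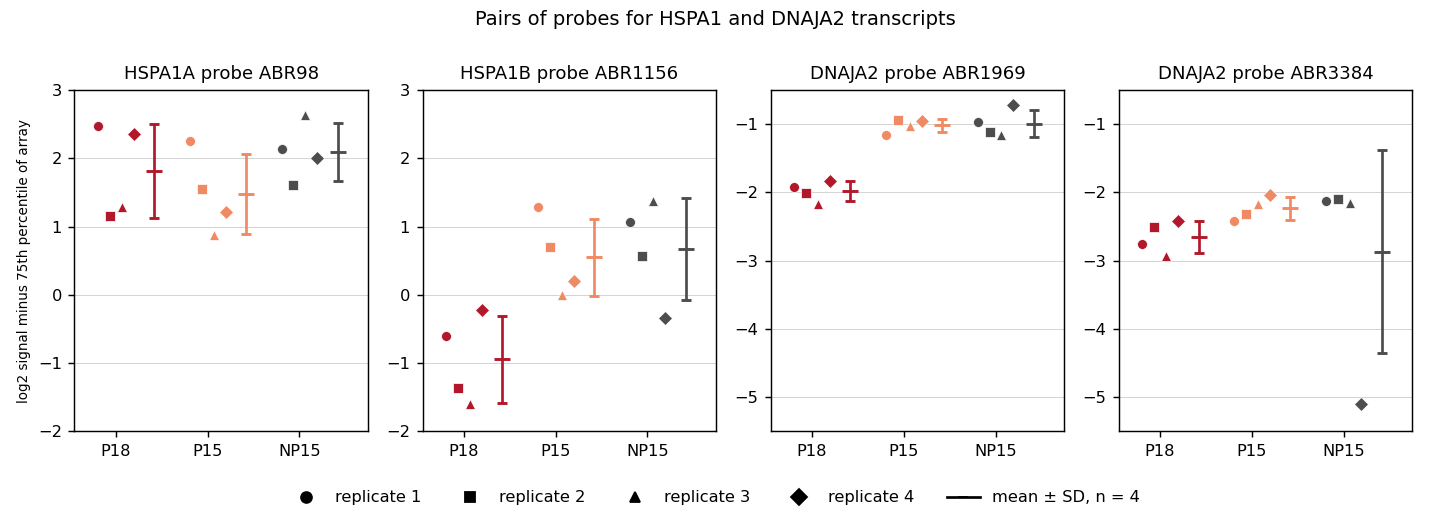
Levels of the HSPA1A and HSPA1B probes (left pair, same vertical scale) and of the DNAJA2 probes (right pair, same vertical scale) in log2 signal minus the 75th percentile of the array, by group; symbols are corpora lutea, with the replicate number by shape, and bars are the mean ± SD of 4. The HSPA1B probe is at -1.60 to -0.22 in P18 while the HSPA1A probe is at 1.16 to 2.47, and the DNAJA2 probe ABR3384 is at -5.10 in NP15 replicate 4.

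DNAJA2, a cytosolic partner of HSPA8, fell on day 18. The probe that stood for it, ABR1969, was at -1.92, -2.01, -2.17 and -1.83 in P18, at -1.16, -0.94, -1.02 and -0.95 in P15, and at -0.97, -1.11, -1.16 and -0.72 in NP15. All P18 cows lay below all others, and DNAJA2 fell by 0.99 ± 0.12 on the log2 scale (1.99-fold, adjusted p 0.000235 by limma) in P18 against NP15 and by 0.97 ± 0.12 (1.95-fold, adjusted p 0.000273) in P18 against P15. The other probe, ABR3384, was at -2.76, -2.50, -2.93 and -2.42 in P18, at -2.42, -2.31, -2.17 and -2.03 in P15, and at -2.12, -2.10, -2.15 and -5.10 in NP15. With all arrays it differed by 0.21 ± 0.56 for P18 against NP15; without NP15 replicate 4 it fell by 0.53 ± 0.14 (adjusted p 0.0159) against NP15 and by 0.42 ± 0.13 (adjusted p 0.0291) against P15. The sign for this probe thus rests on 1 array, on which the other DNAJA2 probe was at -0.72, the highest of its group. With the mean of the 2 probes DNAJA2 was at -0.39 for P18 against NP15 (adjusted p 0.3) and at -0.69 for P18 against P15 (adjusted p 0.0726), so both calls were lost.

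Of the 16 DNAJ genes, 2 were higher and 2 lower in P18 than in NP15, where 28.9% of all genes passed, and 3 higher and 2 lower than in P15, where 28.3% passed. DNAJB12, an endoplasmic reticulum membrane protein that recruits HSP70 to faulty membrane proteins, was at -4.68, -4.89, -4.68 and -4.83 in P18, at -3.56, -3.89, -4.03 and -3.94 in P15, and at -4.20, -4.17, -3.85 and -3.54 in NP15. No P18 cow overlapped the others. It fell by 0.83 ± 0.16 on the log2 scale (1.77-fold, adjusted p 0.00293 by limma) against NP15 and by 0.91 ± 0.16 (1.88-fold, adjusted p 0.00179) against P15, with -0.45 as the smallest difference in any alternative against NP15. DNAJB4, a cytosolic DNAJ protein, rose. It was at -0.52, -0.95, -0.35 and -0.69 in P18, at -1.28, -1.30, -1.59 and -1.40 in P15, and at -1.27, -1.62, -1.48 and -1.38 in NP15, again without overlap. The rise was 0.81 ± 0.14 (1.75-fold, adjusted p 0.0017 by limma) against NP15 and 0.76 ± 0.14 (1.69-fold, adjusted p 0.00251) against P15.

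DNAJC19, which belongs to the motor that pulls proteins into mitochondria, was at 1.12, 1.16, 1.06 and 1.1 in P18, at 0.31, 0.25, 0.47 and 0.41 in P15, and at 0.51, 0.60, 0.49 and 0.73 in NP15. The 3 groups did not overlap, with P15 lowest and P18 highest. DNAJC19 rose by 0.53 ± 0.09 (1.44-fold, adjusted p 0.00176 by limma) in P18 against NP15 and by 0.75 ± 0.09 (1.68-fold, adjusted p 0.000243) in P18 against P15; it was -0.22 ± 0.09 for P15 against NP15 (adjusted p 0.498). DNAJB12, DNAJB4 and DNAJC19 kept their calls in each alternative run and with each array left out. DNAJB6, which blocks the aggregation of proteins, rose by 0.44 ± 0.14 in P18 against P15 (adjusted p 0.0347), a call lost with quantile normalization, with cyclic loess and without any P18 array or without P15 replicate 1, 2 or 3. Against NP15 it was 0.37 ± 0.14 (adjusted p 0.0705), and 0.50 without NP15 replicate 4 (adjusted p 0.00585). With all arrays it passed against NP15 with median centring (adjusted p 0.0206) or array weights (adjusted p 0.00549). DNAJB1, the partner of inducible HSP70, did not pass (-0.33 ± 0.20 for P18 against NP15, adjusted p 0.24). The DNAJC14 probe and its copy of the same sequence differed by 0.08 ± 0.13 and -0.07 ± 0.16 for P18 against NP15.

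**Figure D5:**
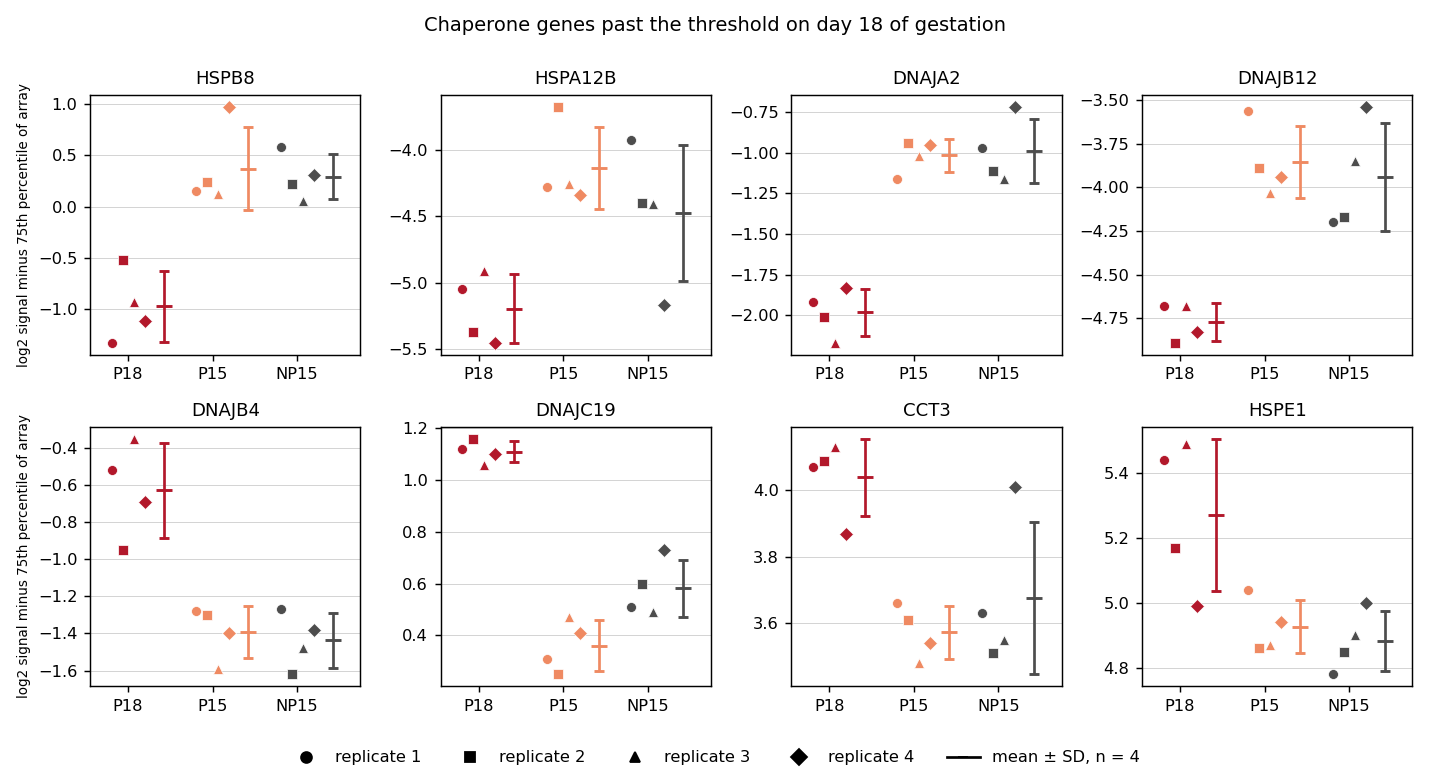
Levels (log2 signal minus the 75th percentile of the array, vertical axis, with its own scale in each panel) of 8 chaperone genes that passed the test in a P18 comparison, in P18, P15 and NP15; symbols are corpora lutea, with the replicate number by shape, and bars are the mean ± SD of 4. HSPB8, DNAJA2 and DNAJB12 lie below both other groups in all P18 cows and DNAJB4 and DNAJC19 above them, while CCT3 and HSPE1 overlap with NP15.

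HSPE1, the lid of the mitochondrial chaperonin, was at 5.44, 5.17, 5.49 and 4.99 in P18, at 5.04, 4.86, 4.87 and 4.94 in P15, and at 4.78, 4.85, 4.90 and 5 in NP15. It rose by 0.39 ± 0.12 (1.31-fold, adjusted p 0.0331 by limma) in P18 against NP15 and was 0.35 ± 0.12 for P18 against P15 (adjusted p 0.0542). Its spot lay in the outer rows, and the call against NP15 was lost with cyclic loess, with the replicate block (adjusted p 0.0571), with the 8 arrays of these groups alone and without NP15 replicate 1, 2 or 3 or P18 replicate 1 or 3, the adjusted p reaching 0.0932. Against P15 it passed in 5 other settings, with adjusted p from 0.015 to 0.0493, and without NP15 replicate 4 (0.0429) or P18 replicate 4 (0.0197). CCT3, a subunit of the CCT ring, was at 4.07, 4.09, 4.13 and 3.87 in P18, at 3.66, 3.61, 3.48 and 3.54 in P15, and at 3.63, 3.51, 3.55 and 4.01 in NP15. It rose by 0.47 ± 0.12 (1.38-fold, adjusted p 0.0153) against P15 in each alternative run, and by 0.36 ± 0.12 (1.29-fold, adjusted p 0.0447) against NP15, a call lost when any array but P18 replicate 4 or NP15 replicate 4 was left out. The other ring subunits measured, CCT4, CCT5, CCT7, CCT8 and TCP1, did not pass: over the 6 ring genes the differences lay between -0.12 and 0.36 for P18 against NP15. Subunits of prefoldin, which hands unfolded actin and tubulin to the ring, were higher in 3 of 6 in P18 against NP15 and in 2 of 6 against P15, with none lower, where 10.4% and 12.8% of all genes were higher. With 1 array left out at a time the count was 1 to 3 against NP15 and 2 to 3 against P15. PFDN5 rose by 0.51 ± 0.12 (adjusted p 0.0076) and 0.53 ± 0.12 (adjusted p 0.00592), and PFDN2 by 0.32 ± 0.09 (adjusted p 0.0251) and 0.45 ± 0.09 (adjusted p 0.00485), against NP15 and P15. PFDN4 was at 0.54 in NP15 replicate 4 and at 1.63 to 1.75 in the other NP15 cows.

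A further 10 chaperone and DUSP genes were tested which the files identify by accession or by another name, so that only the RefSeq table gives their symbol. None passed for P15 against NP15, 4 were lower in P18 than in NP15, 3 were lower in P18 than in P15, and none was higher. Of all genes 18.6% and 15.5% were lower in those P18 comparisons, and 10.4% and 12.8% higher. HSPA5, the HSP70 of the endoplasmic reticulum, was at 0.87, 0.36, 0.63 and 0.74 in P18, at 1.72, 1.86, 1.20 and 1.82 in P15, and at 1.90, 1.32, 1.58 and 1.88 in NP15. It fell by 1.02 ± 0.19 (2.03-fold, adjusted p 0.00211 by limma) against NP15 and by 1.00 ± 0.19 (2.01-fold, adjusted p 0.00244) against P15, in each alternative run. HSP90B1, the HSP90 of that compartment, was at 4.73, 4.56, 4.77 and 4.81 in P18, at 5.62, 5.42, 5.01 and 5.08 in P15, and at 5.30, 5.18, 5.15 and 5.05 in NP15. It fell by 0.45 ± 0.14 (adjusted p 0.0321) against NP15, a call lost with median centring and without 6 of the 12 arrays in turn, and by 0.57 ± 0.14 (adjusted p 0.0114) against P15. HSP90AA1, the inducible cytosolic HSP90, was at 4.83, 4.79, 4.97 and 4.77 in P18, at 5.72, 5.47, 5.37 and 5.11 in P15, and at 5.5, 5.51, 5.45 and 4.24 in NP15. It did not pass with all arrays in the values reported (-0.34 ± 0.26 for P18 against NP15 and -0.58 ± 0.26 for P18 against P15). Without NP15 replicate 4 it fell by 0.65 ± 0.13 (adjusted p 0.00453) and 0.58 ± 0.12 (adjusted p 0.00487). With array weights on all arrays it passed at -0.59 (adjusted p 0.0122) and -0.60 (adjusted p 0.00969). Against P15 it also passed with the 8 arrays of those groups alone (adjusted p 0.0149). DNAJC18 and DNAJC30 were the other genes lower than in NP15, by -0.60 ± 0.18 and -1.75 ± 0.28; the DNAJC18 call was lost under each other scaling and it passed against P15 without NP15 replicate 4 (-0.48, adjusted p 0.024), and the DNAJC30 probe was well above background on 2 of the 4 P18 arrays. The other chaperones and stress sensors of the endoplasmic reticulum did not all follow HSPA5: of 14 tested, 2 were higher and 1 lower in P18 than in NP15, and 1 was higher and 1 lower than in P15. PDIA5, a disulfide isomerase, fell by 1.43 ± 0.20 against NP15 (adjusted p 0.000548), and the stress sensor kinase EIF2AK3 rose by 0.47 (adjusted p 0.0369) in P18 against NP15.

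Co-chaperones and regulators outside the families were tested for 15 genes, with no heat shock factor gene among them. None passed for P15 against NP15; 2 were higher and 4 lower in P18 than in NP15, and 1 was higher and 2 lower in P18 than in P15 (of all genes, 10.4% higher and 18.6% lower than in NP15, and 12.8% and 15.5% than in P15). PTGES3, the HSP90 partner p23 that also makes prostaglandin E2, was at -0.19, -0.32, -0.48 and -0.22 in P18, at 0.15, 0.27, 0.27 and 0.22 in P15, and at 0.68, 0.20, 0.24 and 0.26 in NP15, and fell by 0.65 ± 0.12 (adjusted p 0.00266 by limma) against NP15. STUB1, the ubiquitin ligase that marks chaperone clients for destruction, rose by 0.59 ± 0.13 (adjusted p 0.00644). Among the 19 other early and stress-response genes, 3 were lower in P18 than in NP15 and 2 lower than in P15, with none higher. RHOB, an early-response GTPase, was at -3.65, -4.30, -3.56 and -3.81 in P18, at -2.73, -2.46, -2.58 and -1.45 in P15, and at -2.33, -2.74, -1.95 and -1.75 in NP15, and fell by 1.64 ± 0.30 (3.12-fold, adjusted p 0.00236) against NP15. PTGS2, the inducible cyclooxygenase, was well above background on all 4 P15 and all 4 NP15 arrays and on none of P18. It was at least 2.06-fold lower in P18 than in P15 and at least 2.1-fold lower than in NP15. PTGS2 was kept through its P15 and NP15 arrays alone, so only a lower level in P18 could appear. These bounds are therefore a description, although PTGS2 is among the lower genes counted in both comparisons. MYC was lower in P18 than in NP15, at -1.05 ± 0.35 (adjusted p 0.0428). Of 10 kinases and ELK factors upstream of early genes, 3 were higher and 2 lower in P18 than in NP15, and 2 higher and 2 lower than in P15. MAPK9, a JNK kinase that phosphorylates JUN, was well above background on none of the P18 arrays. It was at least 1.72-fold lower there than in NP15. Like PTGS2, MAPK9 was kept through the P15 and NP15 arrays alone, so this is a description, although it is counted among the lower kinases. MAP2K6 fell by 0.70 (adjusted p 0.0207), and RPS6KA3 and ELK1 rose by 0.49 and 0.47 (adjusted p 0.0378 and 0.0314).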

How the data were processed

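The scanner files hold spot intensities that the authors obtained with Agilent's Feature Extraction software (9.5 in the submitters' processing notes, 9.5.1.1 per the file headers), which had already removed background and a spatial trend from the processed signal. A value table deposited beside them is on the log2 scale; each column equalled log2 of the processed signal less a constant, which missed the 75th percentile by 0.0076 to 0.0142, so its scale, centring and direction are settled. Its column medians ran from -3.32 to -2.99. The quality flags of the deposited scanner files, another kind of value, were also read. From these, log2 processed signal was taken relative to the 75th percentile of its array. Control spots were dropped, and marked spots (9 or fewer an array) became missing. Probes flagged as well above background on 3 or 4 arrays in some group were kept (12605), and a gene's brightest kept probe stood for it (12316 genes). The number of arrays limits the precision.

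Names came from the files and a table of bovine RefSeq genes (ARS-UCD2.0, names only); 8073 of 15208 probes had no match. limma 3.58.1 under R 4.3.3 fitted all 12 arrays (lmFit, then eBayes), after tests on simulated data. Second probes were tested over all kept probes.

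The genes, lists and tests were chosen with earlier results of these data known. Named were all tested immediate early, DUSP, HSPA, HSPB, HSPE and HSP90 genes, up to 6 DNAJ and CCT genes in each direction by p, the 8 genes with the largest ranges, and up to 4 genes by p of each related list; DNAJB1, DNAJC5, HSPBAP1, NR4A1 and the genes named through RefSeq were added after their values were seen. Replicate numbers come from the titles and mark different animals; they equal the slide column. Deviations of same-numbered cows correlated at 0.119, 0.164, 0.098 and 0.294 for replicates 1 to 4 of P15 and NP15, which shared slide 1. In pairs with P18, on the other slide, they correlated at -0.044 to 0.173. The numbers mark different animals, so the main fit did not pair the samples, and a replicate block was run as an alternative. Alternatives were quantile, median and cyclic loess scaling, normexp with an offset of 50, the deposited table, other filters and probe rules, a position adjustment, the outer 24 rows left out, array weights, a replicate block, the slide, 8 arrays only and each array left out.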

Additional observations from a re-analysis of the deposited data

Results flagged for a closer look

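Of 180 sets of 4 cows of 1 gene checked for a cow far from the other 3 by Dixon's test at the 95% level, 16 stood out. The level of the test is 1 in 20, but the share of all genes that stood out in this way is not given here. That share need not be 1 in 20, since 8.53% of all genes lay more than 1 log2 unit below their group in NP15 replicate 4. The 16 are therefore a description. Immediate early genes gave 2 of them, both in P18 replicate 2: FOS at 0.06 against -2.71 to -2.31, and IER2 at 3.70 against 1.96 to 2.22. NP15 replicate 4 gave HSPA9 at -2.68 against -0.43 to -0.32, DNAJC2 at 0.36 against 2.18 to 2.25, HSP90AA1 at 4.24 against 5.45 to 5.51, and HSP90AB1 at 5.24 against 4.78 to 4.86. P15 replicate 4 gave HSPB8 at 0.97 against 0.12 to 0.24, DNAJC17 at -1.75 against -1.45 to -1.40, HSPA9 at -0.49 against -0.39 to -0.37, DNAJC2 at 1.93 against 2.11 to 2.14, and DUSP3 at 0.87 against 1.13 to 1.18. HSPA12B was at -3.68 in P15 replicate 2 against -4.34 to -4.26. HSP90AB1 was at 4.48 in P18 replicate 4 against 4.8 to 4.86, and DNAJB6 at 2.17 in P18 replicate 2 against 1.94 to 1.96. In NP15 replicate 2, HSPB1 was at 4.54 against 4.20 to 4.25 and DNAJC15 at 1.97 against 2.13 to 2.14.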

How the results depend on the processing

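For P15 against NP15 no heat shock, chaperone or early gene passed under any alternative run. For P18 against NP15, 4 chaperones were higher in the values reported: 8 with median centring, and 2 with the replicate block or with the 8 arrays of these groups alone; 3 were lower, and 5 with the replicate block. Early and DUSP genes, of which 0 were higher, gave 1 with quantile normalization, cyclic loess, normexp or the replicate block, 2 with array weights and 3 with median centring. For P18 against P15, the 4 higher chaperones became 7 with quantile normalization, and the 1 higher early or DUSP gene became 2 with median centring, array weights or 8 arrays. The 1 lower gene, JUN, became 0 without the outer rows, where it was not tested. Leaving out 1 array at a time gave, for P18 against NP15, 2 to 6 higher and 3 to 4 lower chaperones and 0 to 1 higher early or DUSP gene. For P18 against P15 it gave 3 to 6 higher and 4 to 5 lower chaperones, 0 to 2 higher early or DUSP genes and 1 lower. The higher ones against P15 were the DUSP genes DUSP12 and DUSP3. The largest counts, 6 and 2, came without NP15 replicate 4. The DNAJA2 probe ABR3384 reversed for P18 against NP15, at -0.53 without NP15 replicate 4 and up to 0.47 with other arrays left out, through the value of -5.1 on that array. With the replicate block, CCT3 and HSPE1 lost their calls against NP15 (adjusted p 0.0837 and 0.0571) and EGR4, HSPA12B and HSPA14 gained them (0.0404, 0.0405 and 0.0481); no other named gene changed its call. The slide as a block gave no value for P18. The causes of the other changes were not tested. Single genes of the related lists were not refitted by name. Probes near background, such as EGR1, EGR4, DNAJB12 and HSPA12B, are limited by their signal, and with normexp DNAJB12 was at -0.45 for P18 against NP15, against -0.83.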
